A study of Mus musculus with 8 samples.

Results

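The 34 genes described here serve the endoplasmic reticulum (ER) and the response to amino acid shortage. They are 14 ER chaperones and folding factors, 4 genes of ER-associated degradation, 4 ER stress sensors and their factors, and 12 genes of the Atf4 type, which answer to the transcription factor Atf4 or act with it. They were taken by name, through the gene symbols of the array's annotation, out of 18192 named genes. The choice was made with earlier results of these arrays known. Together they are read by 82 of the 45037 probe sets, and the brightest probe set stood for each gene. All 34 were above the limit set for dim genes.

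The arrays measured RNA of AML12 cells, an established line of mouse hepatocytes, that carry v-erbA by transfection, and of AML12 cells without it. v-erbA is a viral oncogene from birds that encodes an altered form of the thyroid hormone receptor and holds down the receptor's target genes. Each line was given 1 µM retinoic acid (RA) or was left untreated and was sampled at 3 h or 24 h, which makes 8 combinations with 1 array each. The design asked which RA-regulated genes differ in expression when v-erbA is present. The labels name neither the promoter that drives v-erbA nor whether the transfected cells are 1 clone or a pool, so v-erbA, the transfection and the choice of cells cannot be told apart. Nothing says that the arrays come from separate cultures, so that p-values rest on how much these arrays vary and that variation may be technical. Times were read from the titles, although 3 of the 4 arrays titled 24 h carry a description with 3 h. No probe set for v-erbA was analysed here.

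ER chaperones fold newly made secreted and membrane proteins, and hepatocytes secrete much of the protein of blood plasma. When unfolded proteins accumulate, 3 sensors respond in the unfolded protein response. Ern1 splices the messenger of Xbp1, Atf6 is cleaved to a transcription factor, and both routes raise chaperones and degradation genes. The kinase Eif2ak3 slows translation and thereby raises Atf4, which amino acid shortage also raises through another kinase, and Atf4 drives genes of amino acid supply.

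Both lines had hepatocyte RNA, with albumin (Alb) between 9364 and 10432 units in v-erbA cells and between 9860 and 11053 units in AML12 cells. All 13 hepatocyte markers found on the array were measured. Against 26.9% lower and 26.5% higher among all genes tested, 8 of the 13 were lower with v-erbA and 1 was higher. Their median change was -0.63 on the log2 scale, close in size to that of the chaperones below, with the apolipoprotein gene Apoa1 lowest at -2.98, at 199.8 to 742 units in v-erbA cells and 1823 to 7093 units in AML12 cells. The summed signals, to which Alb, Ttr, Krt8 and Krt18 gave most, were 39260 to 41955 units in v-erbA cells and 45816 to 55610 units in AML12 cells. Of the markers of other cell types, 3 of 6 macrophage genes (Ptprc, Cd68 and Lyz2), 3 of 5 endothelial genes (Pecam1, Cdh5 and Vwf), 4 of 8 mesenchymal genes (Col3a1, Pdgfra, Pdgfrb and Thy1) and 0 of 4 biliary genes lay below the median signal of 73.5 units on all 8 arrays. Others were above it on every array, such as Csf1r at 85.0 to 190 units in v-erbA cells and 78.5 to 186 units in AML12 cells, and Sox9 at 729 to 1584 units in v-erbA cells and 711 to 1752 units in AML12 cells. Enough signal to test was found for 3 of 6 macrophage, 1 of 5 endothelial, 4 of 8 mesenchymal and 4 of 4 biliary genes. Of those tested, 4 were lower with v-erbA (Cd14, Col1a2, Vim and Krt19) and 2 were higher (Acta2 and Krt7), beside the same shares of all genes. The summed macrophage signal, most of it Cd14, was 2151 to 3002 units in v-erbA cells and 3353 to 5468 units in AML12 cells. Ptprc and Cd68, both below the median signal, ran the other way. Ptprc read 45.4 to 55.8 units in v-erbA cells and 14.8 to 23.4 units in AML12 cells. Cd68 read 48.6 to 60.4 units in v-erbA cells and 14.7 to 28.3 units in AML12 cells. The summed endothelial signal was 105 to 279 units in v-erbA cells and 148 to 232 units in AML12 cells. For mesenchymal genes the sums, most of them Vim, were 5116 to 6660 units in v-erbA cells and 6428 to 7520 units in AML12 cells. For biliary genes, with Krt19 and Sox9 giving most, they were 3240 to 4125 units in v-erbA cells and 4772 to 5953 units in AML12 cells. The part of these markers in the results below was not tested. In a bulk sample, fewer cells of a type and less RNA per cell cannot be told apart.

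With v-erbA, 21 of the 34 genes were lower and 4 were higher at an adjusted p under 0.05, while among all genes tested 26.9% were lower and 26.5% were higher. The adjusted p comes from limma's moderated fit of line, treatment and time, made on the log2 of signal plus an offset of 19.9 units, and is adjusted over 12015 genes. Of the chaperones 13 of 14 fell, of the degradation genes 4 of 4, of the sensors 0 of 4, and of the Atf4-type genes 4 of 12. A fall of at least 0.5 on the log2 scale was reached by 16 of the 34 genes, against 8.6% of all genes. On 19 of the 34 genes every v-erbA array lay below every AML12 array, against 19.5% of all genes, and on 3 every v-erbA array lay above, against 18.7%. Because the genes were chosen with earlier results of these arrays known, the counts beside these shares are a description. The colour map of the 34 genes shows the division by line running through the chaperone and degradation classes and breaking up below them.

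**Figure D1:**
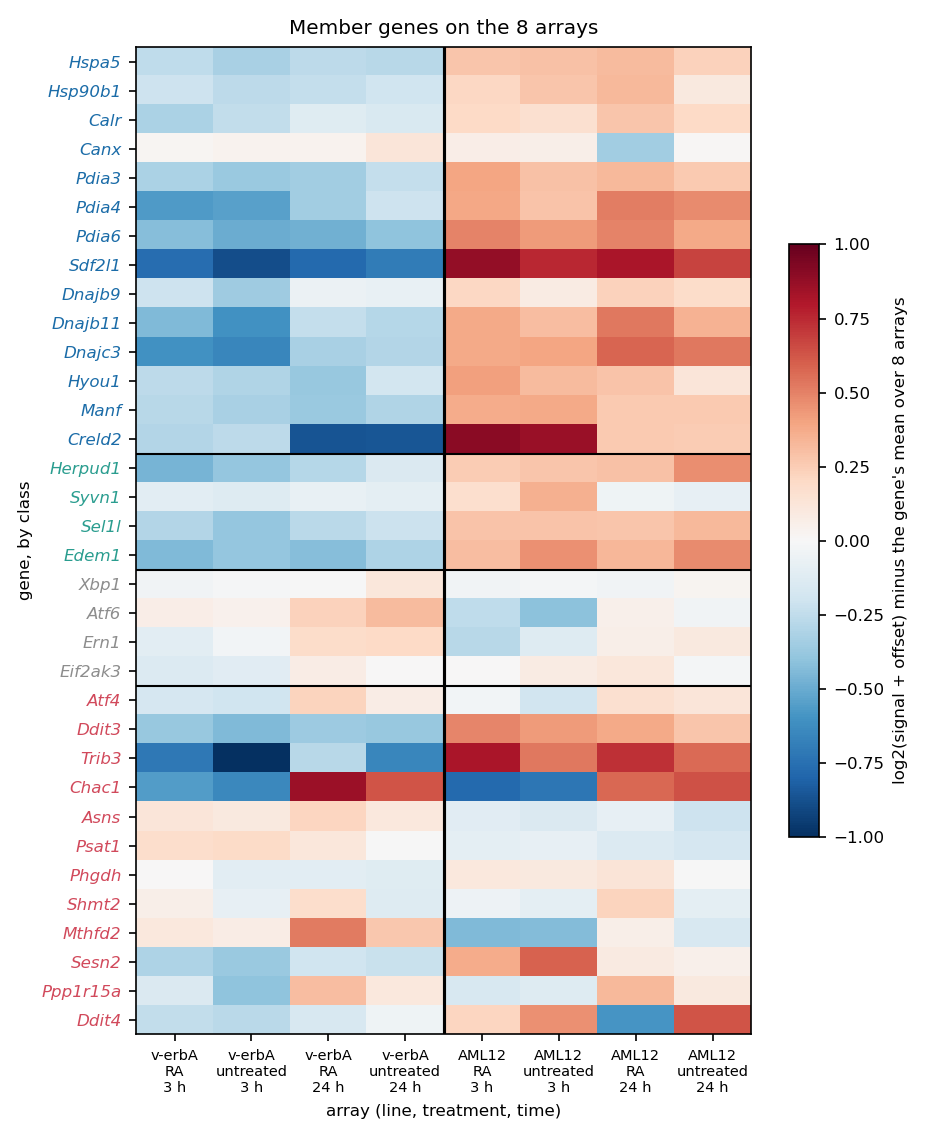
Each row is a gene, grouped by class, and each column is 1 array, with the 4 v-erbA arrays on the left and the 4 AML12 arrays on the right. Colour gives log2(signal + offset) minus the gene's mean over the 8 arrays, from -1 (blue) to 1 (red). Of the 14 chaperone rows 13 are blue in all v-erbA columns and red in all AML12 columns.

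Hspa5, also called BiP, is the main Hsp70 chaperone of the ER lumen. In the order RA 3 h, untreated 3 h, RA 24 h and untreated 24 h, which holds for all series of 4 values below, it read 5233, 4965, 5199 and 5139 units in v-erbA cells and 7565, 7639, 7772 and 7296 units in AML12 cells. The lines did not overlap, and within a line RA and time left the values close together. The v-erbA mean was 67.8% of the AML12 mean, and the fitted change was -0.56 ± 0.03 on the log2 scale (SE; limma adjusted p = 6.67e-07). The stretch of 250 bases before the gene's start in RefSeq (GRCm38.p6, chr2:34771840-34772089, plus strand) is shown because Hspa5 is the model target of the response. Its capitals mark the UPRE core TGACGTG, and then CCAAT and CCACG, the ends of an ER stress response element (ERSE).
Hspa5 promoter: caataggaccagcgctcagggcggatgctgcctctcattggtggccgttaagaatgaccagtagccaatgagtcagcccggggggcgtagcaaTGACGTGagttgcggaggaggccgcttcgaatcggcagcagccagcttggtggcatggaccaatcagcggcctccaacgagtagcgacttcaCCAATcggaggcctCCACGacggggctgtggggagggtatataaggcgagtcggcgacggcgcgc

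The deepest fall among all 34 genes was that of Sdf2l1, a partner of the ER's J-domain proteins. Sdf2l1 read 358, 327, 353 and 373 units in v-erbA cells and 1154, 1059, 1106 and 1004 units in AML12 cells. Its v-erbA arrays thus stood at 32.6% of the AML12 mean, with a change of -1.56 ± 0.06 (SE; limma adjusted p = 1.71e-07), and the 4 matched pairs of arrays gave differences from -1.64 to -1.38. Creld2, an ER stress-inducible protein with EGF-like repeats, followed. Creld2 read 616, 632, 411 and 411 units in v-erbA cells and 1440, 1402, 918 and 911 units in AML12 cells. It was lower with v-erbA at both times and lower at 24 h in both lines, and its v-erbA change was -1.14 ± 0.04 (SE; limma adjusted p = 1.83e-07).

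J-domain co-chaperones hand unfolded clients to Hspa5, and the 3 among the genes described here all fell. Dnajc3, which also inhibits Eif2ak3, read 1231, 1187, 1499 and 1531 units in v-erbA cells and 2449, 2482, 2818 and 2713 units in AML12 cells. Its v-erbA level was 52.1% of that in AML12 cells (change -0.94 ± 0.04). Dnajb11 read 536, 476, 619 and 600 units in v-erbA cells and 958, 916, 1068 and 942 units in AML12 cells, with a change of -0.78 ± 0.05. Dnajb9 changed less, by -0.35 ± 0.05, with 808 to 997 units in v-erbA cells and 1104 to 1221 units in AML12 cells. For each of the 3 genes the highest v-erbA array lay below the lowest AML12 array.

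Disulfide isomerases form and rearrange the disulfide bonds of secreted proteins. Pdia6 read 1151, 1093, 1106 and 1167 units in v-erbA cells and 2190, 2094, 2200 and 2026 units in AML12 cells, and its mean with v-erbA was 53.1% of that in AML12 cells. Pdia4 read 491, 499, 573 and 636 units in v-erbA cells and 968, 901, 1056 and 1029 units in AML12 cells. Pdia3, which works with Calr and Canx on glycoproteins, read 3035, 2921, 2964 and 3195 units in v-erbA cells and 4961, 4646, 4737 and 4536 units in AML12 cells. All 3 fell, with changes of -0.90 ± 0.04 for Pdia6, -0.83 ± 0.05 for Pdia4 and -0.64 ± 0.04 for Pdia3 (SE; differences between the genes were not tested; largest limma adjusted p of the 3, 3.84e-06).

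Hyou1, an exchange factor that resets Hspa5, read 859, 836, 788 and 909 units in v-erbA cells and 1377, 1288, 1259 and 1122 units in AML12 cells. Its change was -0.56 ± 0.06, and the pair of untreated 24 h arrays differed least, by -0.30. Manf, a small ER protein first known as a neurotrophic factor, read 4453, 4298, 4170 and 4387 units in v-erbA cells and 6976, 7014, 6466 and 6486 units in AML12 cells, a change of -0.64 ± 0.03. Both genes kept their lines apart on all 8 arrays. Hsp90b1, the Hsp90 of the ER, ranged from 4057 to 4244 units in v-erbA cells and from 5220 to 6110 units in AML12 cells (change -0.45 ± 0.05). Calr, a lectin chaperone of the lumen, ranged from 3333 to 3818 units in v-erbA cells and from 4652 to 5028 units in AML12 cells (change -0.42 ± 0.03).

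Canx, the membrane-bound counterpart of Calr, was the 1 chaperone that did not fall. Canx read 4333, 4382, 4374 and 4648 units in v-erbA cells and 4465, 4449, 3349 and 4304 units in AML12 cells. The low reading came from the AML12 array with RA at 24 h, and the other 7 arrays lay between 4304 and 4648 units. The change was 0.11 ± 0.07 (SE; limma adjusted p = 0.233). In the fit by time it was -0.03 at 3 h and 0.25 at 24 h (limma adjusted p = 0.0362), and without the AML12 RA 24 h array the change over both times was 0.01. The other 2 probe sets of Canx gave changes of -0.14 and -0.15.

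**Figure D2:**
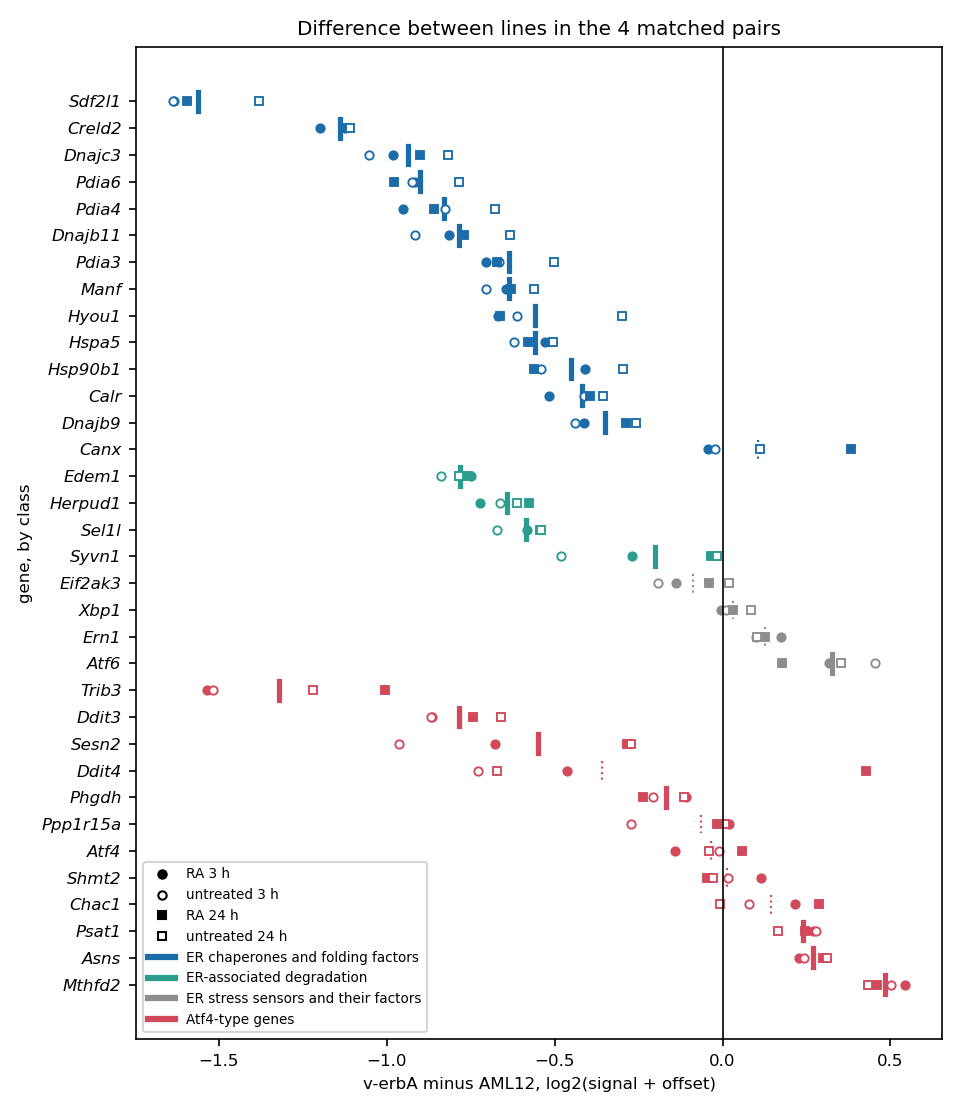
For each gene, sorted within its class, the 4 points give v-erbA minus AML12 in log2(signal + offset) for the pairs RA 3 h, untreated 3 h, RA 24 h and untreated 24 h, and the bar gives the fitted change (solid where the adjusted p is under 0.05, dotted otherwise). The points of 13 chaperones and 4 degradation genes all lie left of 0, whereas the sensors and the Atf4-type genes lie on both sides, and the RA 24 h point of Ddit4 and of Canx stands to the right of their other points.

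ER-associated degradation pulls misfolded proteins back out of the ER. Herpud1, a scaffold of the degradation complex, read 2535, 2682, 2874 and 3165 units in v-erbA cells and 4197, 4258, 4294 and 4846 units in AML12 cells, a change of -0.64 ± 0.04. Edem1, which selects misfolded glycoproteins, read 859, 894, 867 and 941 units in v-erbA cells and 1458, 1615, 1480 and 1636 units in AML12 cells, a change of -0.78 ± 0.04. Sel1l, the partner of the ubiquitin ligase Syvn1, read 673, 629, 687 and 712 units in v-erbA cells and 1017, 1015, 1011 and 1045 units in AML12 cells, a change of -0.58 ± 0.05. These 3 genes kept the lines apart on every array (limma adjusted p from 8.17e-07 to 1.17e-05). Syvn1 itself ranged from 918 to 951 units in v-erbA cells and from 948 to 1290 units in AML12 cells, so its lines overlapped. Its change of -0.20 ± 0.08 only just passed (limma adjusted p = 0.0493). The change was -0.38 at 3 h and -0.03 at 24 h, and it did not pass when 6 of the 8 arrays were left out in turn, for example at -0.12 (limma adjusted p = 0.146) without the untreated AML12 array of 3 h.

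The sensors did not share the fall. Xbp1, the factor that Ern1 activates by splicing, read 3627, 3696, 3719 and 4028 units in v-erbA cells and 3640, 3671, 3641 and 3794 units in AML12 cells. Its lines overlapped, and its change was 0.03 ± 0.03 (SE; limma adjusted p = 0.429). Spliced and unspliced Xbp1 were not told apart here, as the positions of the probes were not examined. Atf6 was higher with v-erbA, at 331 to 404 units against 236 to 333 units in AML12 cells, a change of 0.33 ± 0.06 (limma adjusted p = 0.00188). Ern1 ranged from 363 to 454 units in v-erbA cells and from 320 to 422 units in AML12 cells and did not pass (0.13 ± 0.05, limma adjusted p = 0.0625). Eif2ak3 ranged from 1012 to 1173 units in v-erbA cells and from 1100 to 1207 units in AML12 cells and did not pass either (-0.09 ± 0.05). For Ern1 the second probe set ran the other way, with a change of -0.70.

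The Atf4-type genes divided. Atf4 itself read 2772, 2707, 3635 and 3284 units in v-erbA cells and 3058, 2726, 3489 and 3378 units in AML12 cells. The lines overlapped, with a change of -0.03 ± 0.04 (SE; limma adjusted p = 0.468). Trib3, a pseudokinase induced by Atf4 and Ddit3, read 427, 349, 588 and 447 units in v-erbA cells and 1275, 1037, 1200 and 1067 units in AML12 cells. It fell most of this class, to 39.5% of the AML12 mean (change -1.32 ± 0.08, limma adjusted p = 3.25e-06). Ddit3, the transcription factor also called CHOP, read 453, 432, 457 and 452 units in v-erbA cells and 841, 805, 779 and 726 units in AML12 cells. Its change was -0.78 ± 0.05 (limma adjusted p = 3.97e-06). Sesn2, a leucine-binding inhibitor of mTOR signalling, read 354, 338, 384 and 376 units in v-erbA cells and 578, 678, 472 and 459 units in AML12 cells. Its change was -0.55 ± 0.11 (limma adjusted p = 0.00225), and the pairs differed by -0.96 to -0.27, least at 24 h.

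The enzymes of amino acid supply moved by less and in both directions. Mthfd2, a folate enzyme of mitochondria, read 1032, 1007, 1384 and 1163 units in v-erbA cells and 701, 706, 1001 and 855 units in AML12 cells. Every v-erbA array lay above every AML12 array, the mean was 141% of the AML12 mean, and the change was 0.48 ± 0.05 (limma adjusted p = 9.13e-05). Asns, asparagine synthetase, rose by 0.27 ± 0.03, with 3317 to 3600 units in v-erbA cells and 2677 to 2921 units in AML12 cells. Psat1 of serine synthesis rose by 0.24 ± 0.03, with 4697 to 5390 units in v-erbA cells and 4188 to 4443 units in AML12 cells. Phgdh, which opens serine synthesis, was slightly lower (-0.17 ± 0.03, limma adjusted p = 0.00203), and Shmt2, which turns serine into glycine in mitochondria, had a change of 0.01 ± 0.06. Chac1, an enzyme that breaks down glutathione (0.14 ± 0.06), and Ppp1r15a, which restores translation by dephosphorylating eIF2 (-0.07 ± 0.07), did not pass.

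Ddit4, an inhibitor of mTOR signalling, read 1534, 1511, 1631 and 1770 units in v-erbA cells and 2122, 2517, 1208 and 2828 units in AML12 cells. In 3 of 4 pairs v-erbA was lower, and in the RA 24 h pair it was higher, and the AML12 array of that pair was the lowest of all 8. The change was -0.36 ± 0.18 (SE; limma adjusted p = 0.124). Without that array, singled out after its value was seen, it was -0.62 (limma adjusted p = 3.82e-05). Over each of the 8 arrays left out in turn, the change ran from -0.62 to -0.20.

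**Figure D3:**
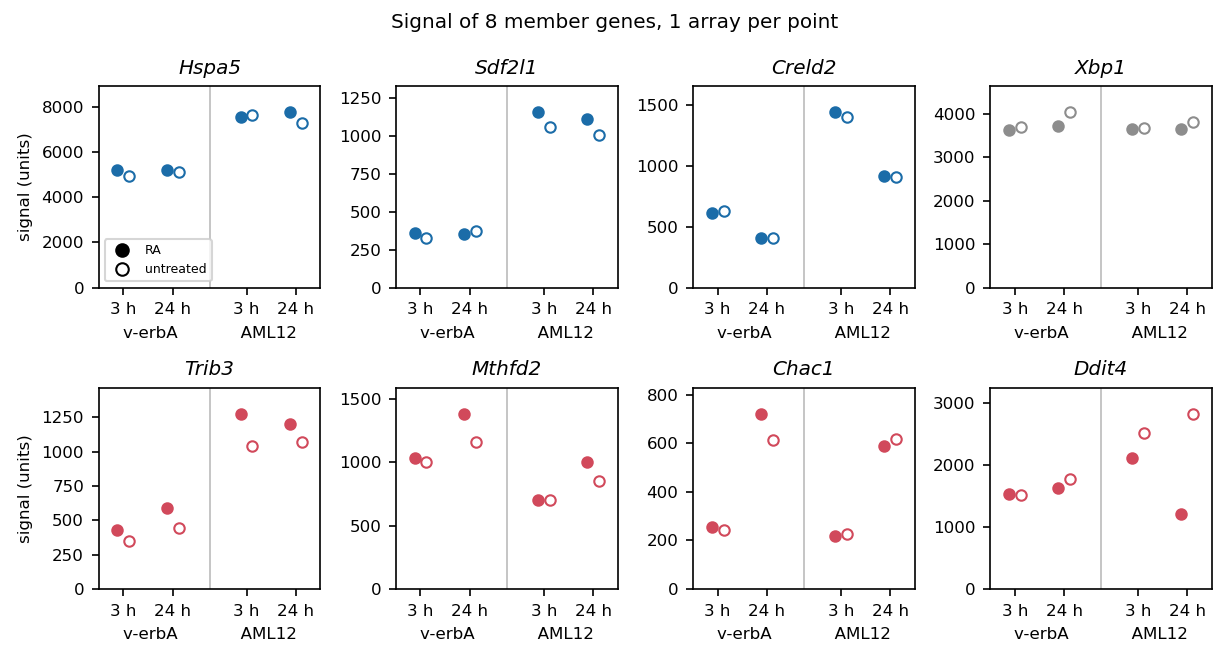
Signal in units of 8 genes, 1 point per array, with v-erbA cells left and AML12 cells right in each panel, and RA as filled and untreated as open points at 3 h and 24 h. Hspa5, Sdf2l1, Creld2 and Trib3 are lower and Mthfd2 is higher in all v-erbA arrays, Xbp1 overlaps, Chac1 is set apart by time, and Ddit4 has 1 low AML12 array at 1208 units.

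Set side by side, the chaperones had a median change of -0.64, the degradation genes -0.61, the sensors 0.08 and the Atf4-type genes -0.05, while the median of all genes tested was 0.01. The difference between the chaperone and the Atf4-type medians was -0.59 over all arrays. Taken pair by pair it was -0.64 with RA at 3 h, -0.58 untreated at 3 h, -0.69 with RA at 24 h and -0.50 untreated at 24 h. The gene classes were set with results of these arrays known, so these medians are a description. Within the Atf4-type class the changes ran from -1.32 to 0.48. The 3 genes that fell most, Trib3, Ddit3 and Sesn2, are regulators and not enzymes of amino acid supply. The regulators Atf4 (-0.03), Ppp1r15a (-0.07) and Ddit4 (-0.36) did not pass. Among the other Atf4 targets listed below, the lowest was the enzyme Aldh1l2 (-1.20) and the highest the transcription factor Atf3 (1.47).

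The falls of some of the chaperones were also read by further probe sets. Of the genes called for v-erbA, 18 had other probe sets with signal above the median on at least 2 arrays, and 30 of those 30 probe sets had the direction of the brightest one. For the chaperones this was 12 of 12, from 6 genes, with a median change of -0.69. Sdf2l1, Creld2, Manf, Dnajb9 and Dnajb11 had no further probe set, and those of Pdia3 and Pdia6 were too dim to count. The falls of these genes thus have no such check. The 2 further probe sets of Hspa5 gave -0.73 and -0.90, and the 4 further probe sets of Dnajc3 gave -0.94 to -0.87. The second probe set of Trib3 gave -1.02, that of Ddit3 -0.40 and that of Mthfd2 0.17. That of Sesn2 gave -0.11, against -0.55 for the brightest, and the 3 further probe sets of Phgdh gave -0.19 to -0.01. The dimmest of the 4 probe sets of Xbp1 gave -0.38, against 0.11 and 0.06 for the 2 between.

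The falls were present at both times. In a fit with a line-by-time term, 21 of the 34 genes were lower with v-erbA at 3 h, against 21.1% of all genes, and 20 were lower at 24 h, against 21.5%. The 20 genes lower at 24 h were all among the 21 lower at 3 h, and Syvn1 was the other one. The term itself, which tests whether the v-erbA change differed between the times, passed for 0 of the 34 genes by limma, against 0.0999% of all genes. At an unadjusted p under 0.05 it held 5 of them, which were Sesn2, Trib3, Syvn1, Canx and Dnajc3, against 1086 of the 12015 genes tested. The v-erbA change of Trib3 was -1.53 at 3 h and -1.11 at 24 h (limma adjusted p of the difference, 0.262), and that of Sesn2 was -0.82 at 3 h and -0.28 at 24 h (limma adjusted p of the difference, 0.245).

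Promoters of the genes were searched for 4 motifs on both strands, in the RefSeq windows of 250 bases before to 50 bases after each start (GRCm38.p6). Windows were listed for 31 of the 34 genes, without Hyou1, Manf and Atf6. The ERSE, spelled CCAAT, any 9 bases, then CCACG, was found in 39 of 32851 windows of all genes (0.119%), which belong to 37 genes. Among the 31 genes it was found in 8 (25.8%), with 2 matches in Hsp90b1. A gene can have several windows, so the share of windows and the share of genes are unlike measures. ERSE-II, spelled ATTGG, any base, then CCACG, was found in 12 windows (0.0365%), among them those of Herpud1 and Dnajb11. The UPRE core TGACGTG was found in 661 windows (2.01%), with Hspa5 the 1 member gene. The matches in these genes did not overlap one another. Positions count the start base as 0. The ERSE and ERSE-II matches are printed with 8 bases on each side, on the strand that reads the motif, because they show which of the chaperone and degradation genes hold either element, and the capitals are the fixed bases.
Hspa5 (chr2:34772017-34772051, plus strand): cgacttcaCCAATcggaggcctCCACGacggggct
Calr (chr8:84847067-84847101, plus strand): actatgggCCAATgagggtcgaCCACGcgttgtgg
Hsp90b1 (chr10:86705630-86705664, minus strand): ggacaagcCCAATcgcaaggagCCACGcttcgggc
Hsp90b1 (chr10:86705525-86705559, plus strand): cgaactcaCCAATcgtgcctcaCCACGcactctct
Canx (chr11:50325792-50325826, minus strand): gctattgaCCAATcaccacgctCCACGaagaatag
Pdia6 (chr12:17266483-17266517, plus strand): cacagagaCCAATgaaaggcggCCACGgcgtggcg
Dnajc3 (chr14:118937819-118937853, plus strand): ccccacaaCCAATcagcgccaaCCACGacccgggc
Creld2 (chr15:88819512-88819546, minus strand): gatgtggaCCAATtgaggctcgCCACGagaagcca
Syvn1 (chr19:6046524-6046558, plus strand): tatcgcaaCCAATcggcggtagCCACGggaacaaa
Herpud1 (chr8:94386369-94386395, plus strand): gggcgctgATTGGgCCACGttggacac
Dnajb11 (chr16:22857844-22857870, plus strand): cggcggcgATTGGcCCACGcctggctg

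Of the 8 genes with an ERSE match 7 fell with v-erbA, against 26.9% of all genes tested, and Canx did not. The chaperone and degradation genes with no ERSE match found all fell as well, among them Hyou1 and Manf, which had no window. Whether an ERSE match goes with the fall was not tested. Of the 29 other genes with such a match 7 had enough signal to test, and 4 of them fell and 1 rose. Sdf2l1, which fell most, has no match of the 4 motifs in this window, which says only that these letters are not there. The ERSE matches of Syvn1 and Hspa5 lie nearest the start, beginning at positions -44 and -65, and 1 of the 2 in Hsp90b1 lies farthest, beginning at position -212.

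The CARE core, which Atf4 binds with a partner, was spelled TGATG, any base, then AA. It was found in 1304 windows (3.97%) and in 4 of the 31 genes, Chac1, Trib3, Asns and Herpud1. They are printed, with the same flanks and capitals, because their genes moved apart.
Chac1 (chr2:119351041-119351064, minus strand): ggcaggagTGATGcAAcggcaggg
Trib3 (chr2:152344031-152344054, plus strand): cgcccggcTGATGtAAacctgagc
Asns (chr6:7693217-7693240, minus strand): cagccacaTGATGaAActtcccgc
Herpud1 (chr8:94386309-94386332, minus strand): gtgcgggcTGATGcAAcccgccgt
With v-erbA Trib3 and Herpud1 fell, Asns rose and Chac1 did not pass.

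**Figure D4:**
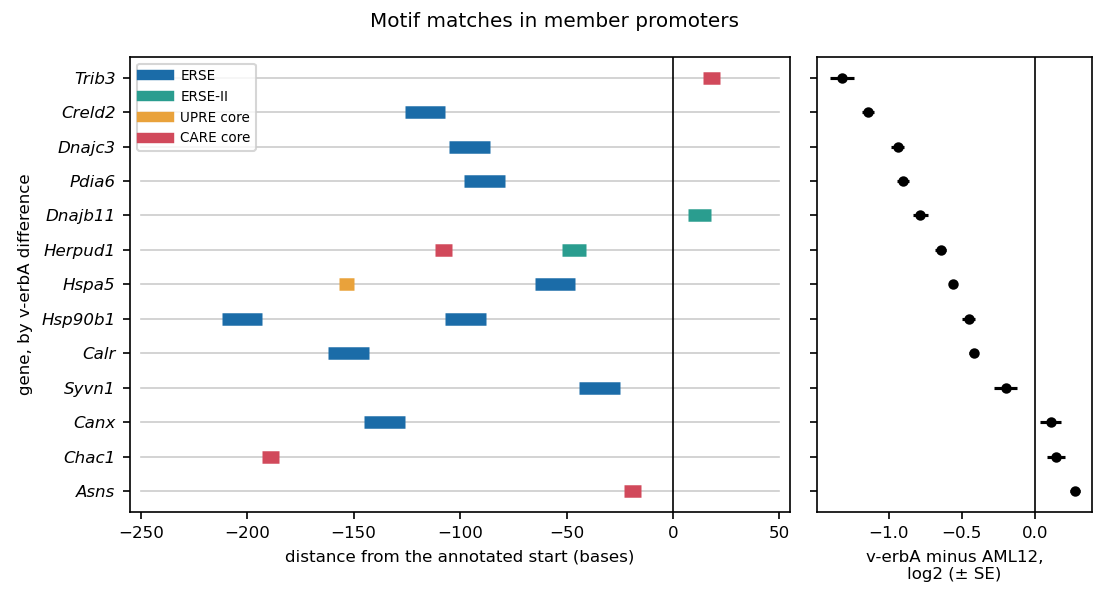
Left, position of each motif match in bases from the annotated start (0), 1 row per gene, sorted by the v-erbA change; right, that change on the log2 scale with its SE. ERSE matches stand in genes with changes from -1.14 (Creld2) to 0.11 (Canx), and CARE cores stand at both ends of the order, from Trib3 at -1.32 to Asns at 0.27.

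Between 3 h and 24 h, 11 of the 34 genes were higher at 24 h, against 19.5% of all genes, and 2 were lower, against 15.2%. On 4 genes every 24 h array lay above every 3 h array (Ern1, Atf4, Chac1 and Ppp1r15a), against 10.1% of all genes. The labels give time in both treated and untreated cells, so that time in culture and processing of the 24 h arrays cannot be told apart.

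Chac1 had the largest time change, 1.35 ± 0.06 (SE; limma adjusted p = 4.9e-07). At 3 h it read 257 and 241 units with RA and untreated in v-erbA cells, and 219 and 228 units in AML12 cells, and at 24 h 721 and 613 units in v-erbA cells and 587 and 616 units in AML12 cells. Its 24 h mean over all arrays was 2.68 times the 3 h mean, the signal was higher at 24 h in 4 of 4 matched pairs, and time held 98.0% of its variation over the 8 arrays. The 250 bases before its start (chr2:119350992-119351241, plus strand) are shown because no other gene of the 34 rose as much with time. The capitals mark the CARE core, which reads on the other strand.
Chac1 promoter: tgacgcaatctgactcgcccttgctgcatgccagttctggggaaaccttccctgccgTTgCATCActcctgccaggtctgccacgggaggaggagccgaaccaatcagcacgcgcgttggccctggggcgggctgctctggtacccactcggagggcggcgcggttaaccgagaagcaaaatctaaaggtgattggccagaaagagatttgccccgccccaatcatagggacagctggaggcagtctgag

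Ppp1r15a read 200, 163, 280 and 240 units in v-erbA cells and 196, 201, 284 and 239 units in AML12 cells, and its time change was 0.42 ± 0.07 (limma adjusted p = 0.00173). Atf4 rose by 0.29 ± 0.04 (limma adjusted p = 0.000267), and Mthfd2 by 0.35 ± 0.05 (limma adjusted p = 0.00121). Creld2 fell by 0.60 on the log2 scale, with a 24 h mean at 0.648 of its 3 h mean, and Psat1 fell by 0.10. The other higher genes were Atf6, Ern1, Dnajc3, Pdia4, Dnajb11, Herpud1 and Calr, with changes from 0.10 to 0.28. Over all genes called for time, 9 had other probe sets with enough signal, and 11 of those 16 probe sets had the direction of the brightest. For Dnajc3 the second probe set gave -0.31, against 0.24 for the brightest. For Shmt2, not called, the 4 probe sets gave time changes of 0.09, 0.02, -0.94 and 2.77.

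The shares of variation summarise the contrast. The line held a median of 92.5% of the variation over the 8 arrays in the chaperones and 94.2% in the degradation genes, while time held 3.35% in the chaperones and 3.27% in the degradation genes. In the sensors the line held 22.1% and time 34.9%, in the Atf4-type genes the line 67.1% and time 8.99%, and in all genes tested the line 42.3% and time 17.8%. Atf4, Chac1 and Ppp1r15a were genes of time, at 84.2%, 98.0% and 78.1%, whereas Trib3 and Ddit3 were genes of the line, at 91.6% and 97.9%.

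**Figure D5:**
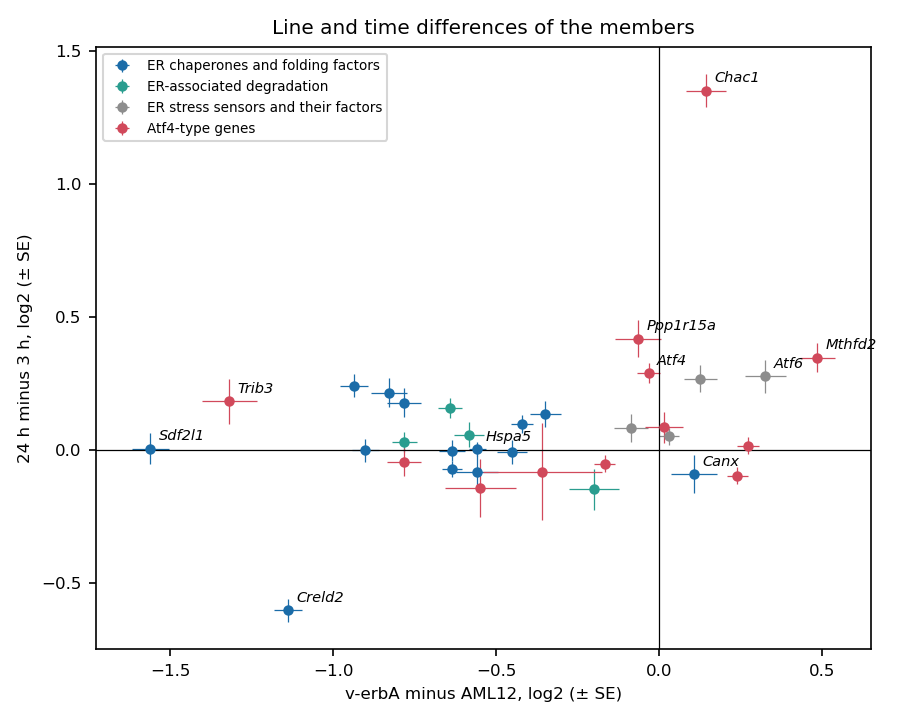
Each point is a gene, with its v-erbA change on the horizontal axis and its 24 h minus 3 h change on the vertical axis, both on the log2 scale with SE bars, coloured by class. Chaperones and degradation genes spread along the horizontal axis at time changes of at most 0.24, apart from Creld2 at -0.60, and Chac1 stands alone at a time change of 1.35.

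RA changed 0 of the 34 genes by limma, against 1.17% of all genes. At an unadjusted p under 0.05 it held 6 of them, against 1240 of the 12015 genes tested. The 6 were Shmt2, Trib3, Edem1, Herpud1, Atf4 and Ppp1r15a, and the smallest adjusted p was 0.207 for Shmt2. A model with all 2-way interactions called 3 (Trib3, Shmt2 and Ddit4), against 582 of the 12015 genes. A fit with the 4 matched pairs of arrays as a block called 1 (Trib3, limma adjusted p = 0.0407), against 149 of the 12015. Trib3 read higher with RA in 4 of 4 pairs, by 0.17 to 0.38, and Shmt2 in 4 of 4 pairs, by 0.04 to 0.32. Shmt2 was also the 1 gene whose RA arrays, at 733 to 892 units, all lay above its untreated arrays, at 694 to 718 units, against 0.749% of all genes. Edem1 and Herpud1 were lower with RA in 4 of 4 pairs each, by 0.15 at most for Edem1 and 0.17 at most for Herpud1.

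Within the lines, RA called 0 of the 34 genes in v-erbA cells, against 0% of all genes, and 0 in AML12 cells, against 0.308%. At an unadjusted p under 0.05 limma held 2 of the 34 in v-erbA cells (Trib3 and Shmt2), against 400 of the 12015 genes tested. In AML12 cells it held 2 (Ddit4 and Edem1), against 1094 of the 12015. The RA-by-line term called 0 of the 34, against 0% of all genes. At an unadjusted p under 0.05 it held 1 (Ddit4), against 201 of the 12015 genes. The RA-by-time term called 0, against 0.0166%. At an unadjusted p under 0.05 it held 2 (Shmt2 and Mthfd2), against 905 of the 12015 genes. Among the single pairs of RA and untreated arrays, Ddit4 in AML12 cells at 24 h had the lowest ratio of the 34 genes, 0.427, with 1208 units with RA and 2828 units untreated. In this pair, which has no replicate, 0.672% of the genes with enough signal in it were lower by at least 2-fold, and Ddit4 was the 1 gene of the 34 among them. In v-erbA cells at 24 h it read 1631 units with RA and 1770 units untreated.

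Further genes of the same pathways, listed by function and also with earlier results known, give the setting. Of 66 other genes of ER folding, translocation and degradation, 42 were lower with v-erbA and 5 were higher, with a median of -0.18. Among all genes tested 26.9% were lower and 26.5% were higher. The lowest were the prolyl isomerase Fkbp11 (-1.05 ± 0.06), the signal peptidase subunit Sec11c (-0.97 ± 0.08) and the oxidase Ero1a (-0.82 ± 0.04). The highest were the translocon subunit Sec61a1 (0.44 ± 0.07), Edem3 (0.34 ± 0.04) and the glucosidase subunit Ganab (0.24 ± 0.04). Of 32 tested among 35 other Atf4 targets, 13 were lower and 8 were higher, beside the same shares of all genes, with a median of -0.09. Here the folate enzymes Aldh1l2 (-1.20 ± 0.08) and Mthfd1l (-0.83 ± 0.07) and the mitochondrial carboxykinase Pck2 (-0.76 ± 0.06) were lowest. The transcription factor Atf3 (1.47 ± 0.14), the arginine carrier Slc7a3 (0.90 ± 0.11) and Stc2 (0.46 ± 0.07) were highest.

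Of 18 cytosolic aminoacyl-tRNA synthetases, which load amino acids onto tRNA, 5 were lower and 5 were higher, with a median of 0.00. These counts are near the shares over all genes tested, 26.9% lower and 26.5% higher. Qars, Cars and Vars were lowest (-0.22, -0.22 and -0.19), and Aars, Rars and Sars were highest (0.36, 0.35 and 0.26). Of 24 tested among 25 heat shock genes of cytosol and mitochondria, 9 were lower and 10 were higher, beside the same shares of all genes, with a median of -0.03. The lowest were the Hsp70 gene Hspa1b (-0.94), the mitochondrial protease Lonp1 (-0.87) and Hspb8 (-0.45), and the highest were Cryab (0.70), Dnajb4 (0.32) and Hsph1 (0.30). With time, 11 of the 32 other Atf4 targets rose, led by the carrier Slc1a4 at 0.58, against 19.5% of all genes. A fall with time was called for 2 of them, against 15.2%.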

How the data were processed

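The authors deposited a linear intensity for each probe set on each array, with values from 0 to 12275 units. Biotin-labelled RNA was hybridised to Affymetrix arrays, per the labels' protocols. How probes were summarised and arrays scaled was not given in the sources used here. Scaling was left as deposited, with array medians from 71.2 to 76.1 units. Of 45037 probe sets 34944 named 1 gene, 932 named several and 9160 named none, and the last 2 kinds were not used; 1 without values was left out. The brightest probe set stood for a gene.

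Tests used log2(intensity + 19.9), the 20th percentile of all values, for the 12015 genes above the pooled median of 73.5 units on at least 2 arrays. limma 3.58.1 in R 4.3.3 fitted line, treatment and time with eBayes and a mean-variance trend (4 residual degrees of freedom, 3 with an interaction term), adjusted by Benjamini-Hochberg. The fit was tested on simulated data. Python 3.11.15 and matplotlib 3.10.9 made counts and figures. The number of arrays limits the precision.

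The genes and lists were chosen with earlier results of these data known. All 34 genes are named. Every array is printed for Hspa5, Xbp1, Atf4 and Ddit3, for genes with a called v-erbA change of at least 0.5 and for the 4 largest called time changes, and of each pathway list the 3 highest and 3 lowest called genes are named. The values of Canx and Ddit4 were printed after they were seen. Single pairs of arrays are ratios with no test. Alternatives were other scalings (median centring, quantile), offsets (1 unit, the pooled median), filters, probe set means, models (that with matched pairs as a block was chosen after seeing the data), subsets of arrays and each array left out. Motifs and sequences come from RefSeq tables of GRCm38.p6, and protein sequences were not used here.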

Additional observations from a re-analysis of the deposited data

How the results depend on the processing

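The labels number no replicates, so replicate numbers could not serve as a block. A paired fit, chosen after seeing the data, took the 4 matched pairs of arrays as a block; it called 4 member genes higher and 20 lower with v-erbA, 10 higher and 1 lower with time, and 1 with RA (Trib3, 0.28, limma adjusted p = 0.0407). Syvn1 no longer passed for v-erbA there (limma adjusted p = 0.0525), nor Calr and Psat1 for time. The 13 chaperones, Herpud1, Sel1l, Edem1, Ddit3, Trib3, Phgdh, Sesn2, Asns, Psat1 and Mthfd2 kept their direction and their side of the threshold for v-erbA under all alternatives run. Syvn1 fell short in 14 of them, and Atf6 in 2, at 0.26 with 24 h arrays alone and 0.25 with RA arrays alone. The cause of the changes below was not tested. Quantile normalization raised the member genes higher with v-erbA to 7. Counted over member genes and settings, 10 v-erbA results not called in the main fit passed in the same direction. When single arrays were left out, 3 did. Among genes never past the threshold in either setting, the v-erbA change turned for Canx to -0.0589 with the mean of probe sets and -0.0326 at 3 h alone, for Ern1 to -0.0904 and for Shmt2 to -0.102 with that mean, and for Xbp1 to -0.0444 with that mean and to -0.000541 with median centring. Shmt2 also gave -0.0173 with median centring, -0.0385 at 24 h alone, -0.0069 in untreated arrays alone and -0.0395 to 0.0563 when single arrays were left out. Atf4 gave 0.0148 with quantile normalization and 0.00894 at 24 h alone, and Ppp1r15a gave 0.0016 in RA arrays alone. The chaperone minus Atf4-type difference was -0.48 with the mean of probe sets, and -0.62 to -0.55 when single arrays were left out.

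For time, 1 member gene was lower without the filter on dim genes, with the mean of probe sets or without the trend, and 5 with all 2-way interactions. Dnajc3 (0.01), Ern1 (0.11), Pdia4 (0.10) and Atf4 (0.21) no longer passed for time with the mean of probe sets, and Calr, Dnajb11 and Psat1 did not pass when most single arrays were left out. Median centring turned the split of genes called for time to 1835 higher and 2250 lower, against 2341 and 1823 as deposited, and that for RA to 138 and 31, against 98 and 43. The v-erbA split became 2744 higher and 3562 lower with median centring, against 3186 and 3235 as deposited. With quantile normalization it was 3497 and 3081. RA called 17 genes without the trend and 582 with all 2-way interactions, where 3 members passed. The v-erbA-by-time term called 24 genes with median centring, 7 with the mean of probe sets and 0 where all 8 arrays had to exceed the median. The RA-by-time term called 1 gene with quantile normalization, with the larger offset and with that stricter filter, and 0 without the trend. When single arrays were left out, v-erbA called 5486 to 6284 genes, with 4 to 5 members higher and 20 to 22 lower, and time called 3072 to 3913, with 8 to 12 members higher and 1 to 3 lower. RA called 35 (without the AML12 RA 3 h array) to 142 genes and 0 members. The RA-by-line term called 0 to 2 genes and 0 to 1 member (Ddit4, without the AML12 RA 3 h array). The v-erbA-by-time term called 1 to 228 genes (228 without the AML12 RA 24 h array, 102 without the untreated AML12 24 h array) and 0 to 2 members (Canx and Ddit4, without the untreated AML12 24 h array). The RA-by-time term called 0 to 96 genes (96 without the untreated v-erbA 24 h array) and 0 to 1 member (Ddit4, without the v-erbA RA 24 h array).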

Other observations

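On the AML12 array with RA at 24 h, 2 member genes stood apart from the other 7 arrays: Canx read 3349 units, against 4304 to 4648 units, and Ddit4 read 1208 units, against 1511 to 2828 units. The other 2 probe sets of Canx gave RA changes of -0.12 and 0.03 over both lines and times. On that array they ran opposite ways. The brighter of them was lowest there, at 1273 units, against 1388 to 1778 units on the others. The dimmer was highest there, at 572 units, against 453 to 542 units.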
